A study of Mus musculus with 9 samples.

Results

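The 7 T-box genes Tbx1, Tbx2, Tbx3, Tbx4, Tbx5, Tbx15 and Tbx18 were followed through H3K27ac peak lists of the mouse forelimb bud. They were chosen as T-box genes with roles in limb type or limb patterning, out of 21911 protein-coding genes of the annotation, and a peak belonged to a gene if it lay within 50 kb of the gene span (GENCODE M21, mm10). Acetylation of histone H3 at lysine 27 marks active promoters and enhancers. The WT list held 60 such peaks of 25096, the Shh-/- list 60 of 32085 and the Shh-/-;Gli3-/- list 67 of 34641, with each peak counted once where windows overlapped.

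Forelimb buds were taken from mouse embryos of mixed strain at E10.5 with 33 to 34 somites, and each MicroChIP started from a single pair of limb buds. The paper states that the Shh and Gli3 null alleles were kept on a Swiss Webster background. WT littermates had active Hedgehog signalling. Shh-/- buds lacked the ligand SHH, so that GLI proteins acted as repressors throughout, and Shh-/-;Gli3-/- buds lacked both SHH and GLI3, the main repressor. The 9 libraries were 2 H3K27ac libraries and 1 input per genotype, each amplified with 12 PCR cycles. Genotypes were taken from the sample titles, since the genotype field read wild type for every library. Only 1 peak list per genotype was analysed here, without values per replicate, so no replicate error could be given and no difference between genotypes was tested. In addition, both comparisons with WT share the same WT list.

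T-box proteins are DNA-binding transcription factors named for a conserved domain. Tbx5 is required for the forelimb to form, whereas Tbx4 is the corresponding gene of the hindlimb. Tbx2 and Tbx3 are close relatives that act mainly as repressors and are expressed at the anterior and posterior margins of the limb bud, where they take part in digit patterning. Tbx15 is expressed in limb mesenchyme and is needed for normal growth of the skeleton, Tbx18 patterns the somites and is also expressed in limb mesenchyme, and Tbx1 is best known from the pharyngeal region and muscle. Tbx2 and Tbx4 are neighbours on chromosome 11, as are Tbx3 and Tbx5 on chromosome 5.

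The mutant lists were longer than the WT list as a whole. The WT list covered 10.4 Mb, the Shh-/- list 12.9 Mb and the Shh-/-;Gli3-/- list 17.1 Mb, so lengths near single genes were read against ratios over the whole lists of 1.25 for Shh-/- to WT and 1.66 for Shh-/-;Gli3-/- to WT. FDR values were below 0.05 for 60.8%, 72.4% and 83.4% of peaks, in the same order. Of 9 limb bud marker genes, 7 had a promoter peak in each list, and Fgf8 and Sp8, which are expressed in the limb ectoderm, had none. None of 4 hindlimb markers, 5 heart markers, 3 neural and crest markers or 5 blood and endothelium markers had a promoter peak in any list, whereas 1 of 5 somite and muscle markers, Meox1, had one in Shh-/-. Within 50 kb, the 5 somite and muscle markers were covered over 0.3 kb in WT and 1.7 and 0.4 kb in Shh-/- and Shh-/-;Gli3-/- in sum, and the 5 heart markers over 1.7 kb, 4.63 kb and 2.25 kb. Both sums were thus highest in Shh-/-, but this was not particular to these markers. The sum of the hindlimb markers was also highest there. So was that of the neural and crest markers (1.1 kb in WT and 1.75 and 1.25 kb in Shh-/- and Shh-/-;Gli3-/-). The blood and endothelium markers (1.25, 2.1 and 2.3 kb) and the limb bud markers (95.55, 106.2 and 157.3 kb) were highest in Shh-/-;Gli3-/-. Over Gli3, 12 peaks covered 6.8 kb in WT, 18 covered 7.2 kb in Shh-/- and 12 covered 13.7 kb in Shh-/-;Gli3-/-, and Shh had no peak in any list, so the lists did not check the null alleles.

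The sequences below are 300 bases around the strongest position of the element that represents each gene, in capitals wherever a GLI site (GACCACCCA) or a T-box motif (AGGTGTGA) was found on either strand. The first was the only distal element near Tbx3 present in WT and Shh-/-;Gli3-/- but not in Shh-/-, the next 3 were the strongest distal elements present in all 3 lists near Tbx5, near Tbx4 (shared with Tbx2) and near Tbx15. Distances are from the nearest edge of the element to the transcription start, and all 4 are on the plus strand of mm10.
Tbx3 +3.6 kb, chr5:119674276-119674575: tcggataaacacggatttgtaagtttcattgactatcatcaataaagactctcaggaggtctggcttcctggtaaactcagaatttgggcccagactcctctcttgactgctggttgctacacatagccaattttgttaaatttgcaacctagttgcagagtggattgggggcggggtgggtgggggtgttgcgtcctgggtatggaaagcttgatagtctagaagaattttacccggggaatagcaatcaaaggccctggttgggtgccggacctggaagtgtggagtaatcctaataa
Tbx5 -27.9 kb, chr5:119804876-119805175: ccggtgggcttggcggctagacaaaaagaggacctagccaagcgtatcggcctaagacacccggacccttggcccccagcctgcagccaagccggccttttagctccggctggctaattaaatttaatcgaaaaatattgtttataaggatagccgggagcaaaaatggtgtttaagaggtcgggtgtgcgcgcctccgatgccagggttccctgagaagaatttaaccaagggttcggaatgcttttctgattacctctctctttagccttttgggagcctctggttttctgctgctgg
Tbx4 -9.1 kb, chr11:85875726-85876025: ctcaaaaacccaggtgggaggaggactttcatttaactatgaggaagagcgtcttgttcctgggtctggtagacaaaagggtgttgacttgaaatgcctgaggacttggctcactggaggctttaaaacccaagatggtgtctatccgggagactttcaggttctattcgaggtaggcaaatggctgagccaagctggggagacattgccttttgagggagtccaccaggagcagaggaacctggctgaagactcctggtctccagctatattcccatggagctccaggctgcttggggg
Tbx15 +57.3 kb, chr3:99312276-99312575: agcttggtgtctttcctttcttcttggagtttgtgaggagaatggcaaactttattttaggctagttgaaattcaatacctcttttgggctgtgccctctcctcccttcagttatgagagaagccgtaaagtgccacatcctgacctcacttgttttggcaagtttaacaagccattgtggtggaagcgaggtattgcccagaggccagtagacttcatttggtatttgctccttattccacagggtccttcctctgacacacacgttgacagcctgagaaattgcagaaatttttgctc

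Neither set of letters occurred in these 4 windows. The next 3 sequences were chosen after their values were seen. The Tbx5 element at -27.9 kb had its highest position elsewhere in the WT list, and there the window held a T-box motif on the minus strand, the only one among the 60 WT peaks near the members. The intronic Tbx15 element at +22.9 kb was the strongest distal element found only in Shh-/-;Gli3-/-. The Tbx18 promoter, 250 bases before to 50 after the start on the minus strand (RefSeq, GRCm38.p6), partly overlapped the Shh-/-;Gli3-/- peak with the highest fold near any member in that list. The Shh-/- peak at this promoter ended just short of the window.
Tbx5 -27.9 kb at the WT position, chr5:119804176-119804475: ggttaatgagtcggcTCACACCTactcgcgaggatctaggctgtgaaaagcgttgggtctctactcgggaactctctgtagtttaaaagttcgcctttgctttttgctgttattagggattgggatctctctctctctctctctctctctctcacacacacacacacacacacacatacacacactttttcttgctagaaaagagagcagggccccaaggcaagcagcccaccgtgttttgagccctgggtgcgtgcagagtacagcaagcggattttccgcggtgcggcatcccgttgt
Tbx15 +22.9 kb, chr3:99277426-99277725: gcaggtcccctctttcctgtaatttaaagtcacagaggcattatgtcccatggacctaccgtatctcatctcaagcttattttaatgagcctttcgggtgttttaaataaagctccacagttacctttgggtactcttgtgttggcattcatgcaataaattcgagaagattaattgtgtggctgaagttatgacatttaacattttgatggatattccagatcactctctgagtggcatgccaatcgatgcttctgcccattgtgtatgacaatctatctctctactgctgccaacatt
Tbx18 promoter, chr9:87731211-87731510, minus strand: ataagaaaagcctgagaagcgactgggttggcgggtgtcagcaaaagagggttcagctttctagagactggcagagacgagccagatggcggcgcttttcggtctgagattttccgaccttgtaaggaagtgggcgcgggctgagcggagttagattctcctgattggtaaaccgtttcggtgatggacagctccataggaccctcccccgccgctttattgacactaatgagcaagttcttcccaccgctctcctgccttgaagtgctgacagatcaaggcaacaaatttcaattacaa

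RefSeq promoter sequences matched 3 of the 7 members, Tbx1, Tbx4 and Tbx18. The entry for Tbx4, shown because no list had a peak at a Tbx4 promoter, lies on the plus strand at the most 3′ of its 3 annotated starts.
Tbx4 promoter, chr11:85896515-85896814: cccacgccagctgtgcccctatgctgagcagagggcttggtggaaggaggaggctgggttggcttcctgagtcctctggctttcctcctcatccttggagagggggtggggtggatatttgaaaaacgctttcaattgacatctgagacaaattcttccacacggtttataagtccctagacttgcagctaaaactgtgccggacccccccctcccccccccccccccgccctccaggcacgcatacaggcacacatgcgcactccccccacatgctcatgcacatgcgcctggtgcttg

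The GLI site was in the 300 base window of none of the 60, 60 and 67 member peaks, and in 0.307%, 0.240% and 0.225% of all peaks of the WT, Shh-/- and Shh-/-;Gli3-/- lists. The T-box motif was in the window of 1 member peak of each list, against 0.937%, 0.948% and 1.03% of all peaks. These 3 peaks lay at 3 different elements, at -27.9 kb from Tbx5 in WT, at -35.5 kb from Tbx5 in Shh-/- and at +23.5 kb from Tbx4 in Shh-/-;Gli3-/-. Over RefSeq promoters of the same length, 0.253% held the GLI site and 1.28% the T-box motif.

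**Figure D1:**
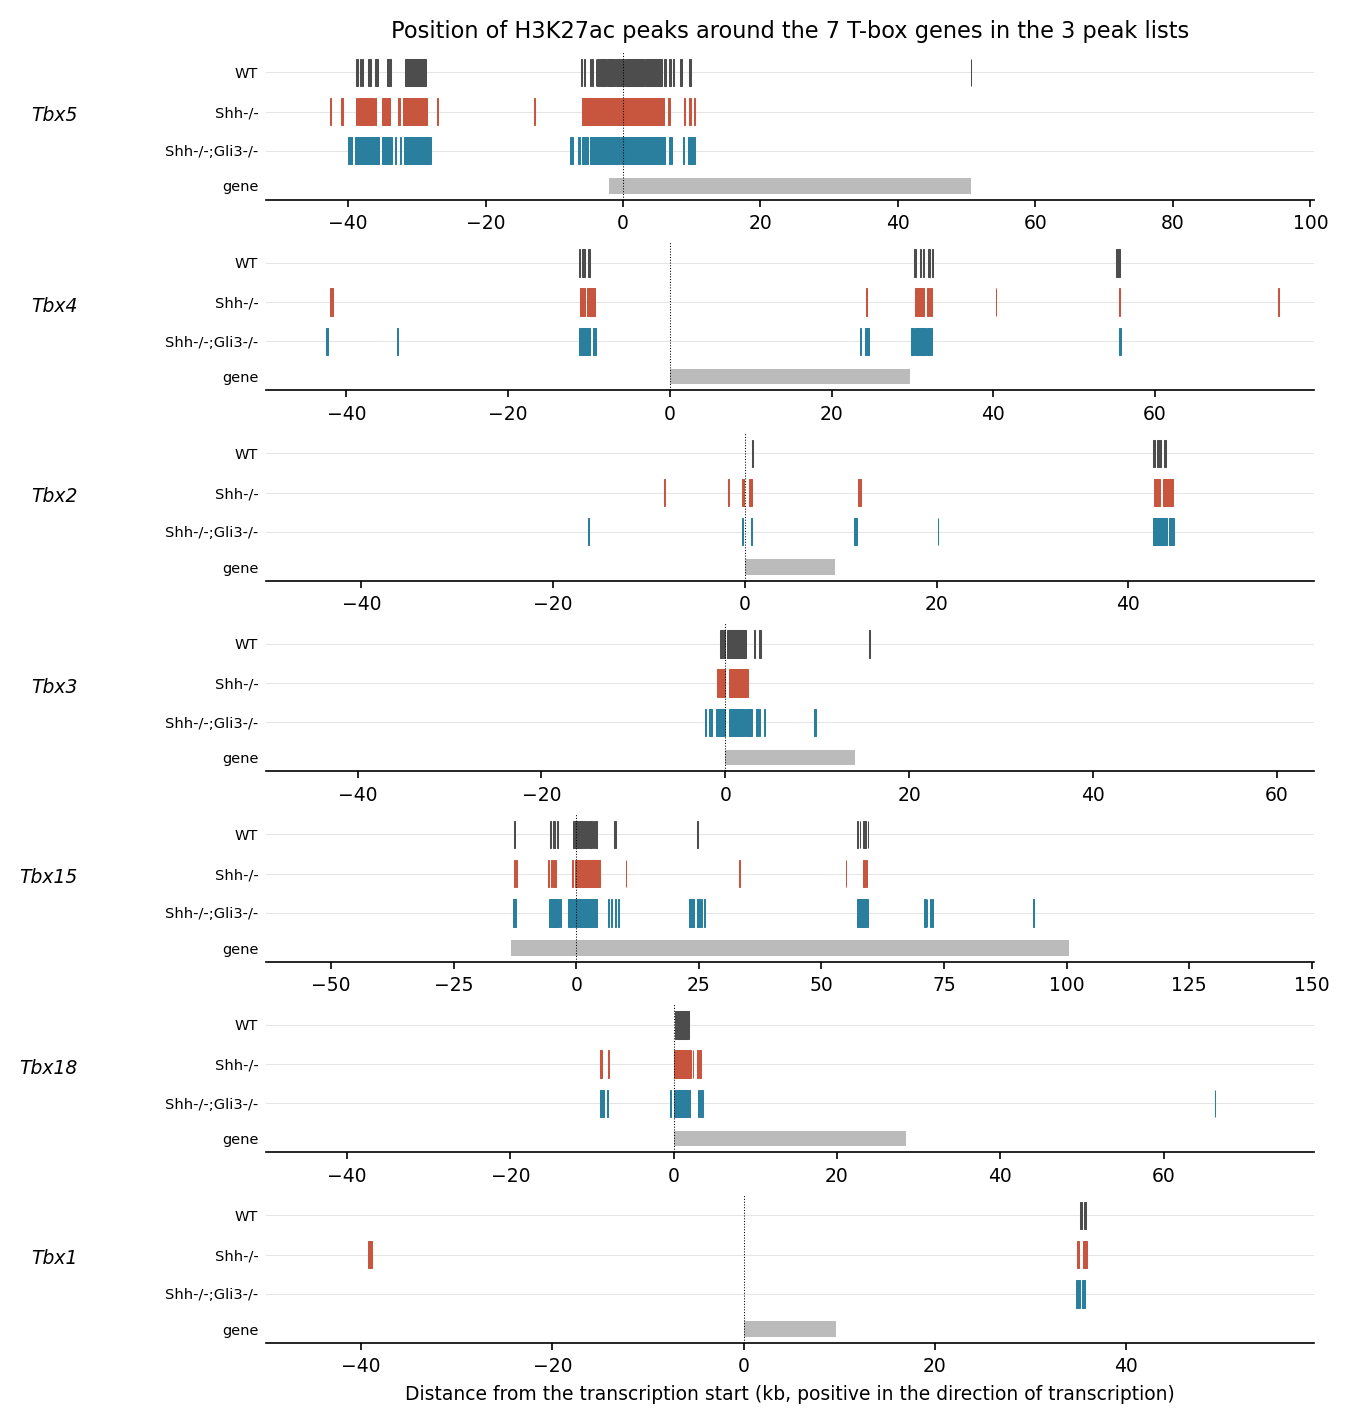
Peaks of the WT, Shh-/- and Shh-/-;Gli3-/- lists around each T-box gene, by distance from the transcription start in kb; boxes are peaks drawn to scale with a thin outline that widens the narrowest, the dotted line is the start, and the grey bar is the gene span. Each panel has its own scale. Tbx5 has a broad block over its start and a second near -28 to -39 kb in all 3 lists, Tbx4 has none at its starts, and Tbx3 has no distal peak in Shh-/-.

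Tbx5, the forelimb gene, carried by far the most H3K27ac of the 7 genes in each list. Its peaks covered 15.75 kb in WT and 20.95 and 23.6 kb in Shh-/- and Shh-/-;Gli3-/-, which was 10.3%, 13.7% and 15.5% of its window. Over all genes the median was 0.600%, 0.756% and 0.878%, and Tbx5 stood at the 99.5th, 99.8th and 99.6th percentile of genes. Tbx5 therefore ranked among the most densely acetylated genes with or without SHH and GLI3. Its ratios to WT were 1.33 in Shh-/- and just under 1.5 in Shh-/-;Gli3-/-, close to the whole-list ratios in Shh-/- and below them in Shh-/-;Gli3-/-.

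The Tbx5 block over the start was a promoter domain that also overlaps the long noncoding RNA Gm43050. It spanned chr5:119828600-119840849 with 9.65 kb covered by 13 peaks in WT, 11.6 kb by 5 peaks in Shh-/- and 11.45 kb by 4 peaks in Shh-/-;Gli3-/-. The covered length was thus similar in both mutants and was split into fewer, wider peaks than in WT. The widest peak touching the promoter was 2.85 kb in WT and 5.3 and 6.4 kb in Shh-/- and Shh-/-;Gli3-/-. Each was above the 99.6th percentile of widths of its own list.

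Upstream of Tbx5 a second group of elements was present in all 3 lists. The element at -27.9 kb (chr5:119802650-119806799), which overlaps an exon of the noncoding transcript 1700021F13Rik, covered 3.0 kb in WT and 3.45 and 4.05 kb in Shh-/- and Shh-/-;Gli3-/-. Its highest fold stood at the 92.3, 98.6 and 95.6 percentile of its own list. Folds are relative to the input of each genotype, so only ranks within a list were set side by side. The element at -35.5 kb covered 1.45 kb, 2.7 kb and 3.55 kb, and the element at -33.7 kb covered 0.6 kb, 1.25 kb and 1.35 kb. All 3 upstream elements were longer in both mutants than in WT. Peaks counted as distal numbered 23 in WT, 18 in Shh-/- and 12 in Shh-/-;Gli3-/-, over 10.95 kb, 14.05 kb and 12.9 kb. These include pieces of the block over the start that did not touch the promoter. Outside that block Tbx5 had 13, 15 and 11 distal peaks, covering 6.1 kb, 9.35 kb and 12.15 kb.

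Downstream of the Tbx5 start the distal elements were short and uneven. One at +6.5 kb covered 0.35 kb, 0.3 kb and 0.4 kb, with a fold at the 74.8, 77.5 and 22.4 percentile, so it ranked far lower in Shh-/-;Gli3-/-. Another at +9.5 kb covered 0.25 kb, 0.4 kb and 1.05 kb. Past these elements the only peak was 1 of 0.1 kb beyond the 3′ end of Tbx5, in WT, with an FDR of 0.330.

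Tbx4, the hindlimb gene, differed from Tbx5 in having no promoter peak in any list. Its 3 annotated starts were free of peaks, whereas 44.2%, 48.2% and 46.3% of all genes had a promoter peak in WT, Shh-/- and Shh-/-;Gli3-/-. Distal peaks near Tbx4 covered 2.4 kb in WT (9 peaks), 4.0 kb in Shh-/- (11 peaks) and 5.5 kb in Shh-/-;Gli3-/- (10 peaks). The hindlimb genes Pitx1, which acts upstream of Tbx4, and Isl1 had no peak within 50 kb in any list. The other hindlimb markers, the neighbouring Hoxc10 and Hoxc11, had no promoter peak either but did have peaks within 50 kb. Hoxc10 was covered over 7.15 kb in WT and 9.85 and 7.15 kb in Shh-/- and Shh-/-;Gli3-/-, and Hoxc11 over 3.3 kb, 4.55 kb and 3.35 kb.

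The distal Tbx4 elements fell into 2 main places. The element at -9.1 kb (chr11:85875150-85877299), intergenic between Tbx2 and Tbx4, covered 0.8 kb in WT and 1.65 and 1.85 kb in Shh-/- and Shh-/-;Gli3-/-. Its highest fold moved through the ranks of the lists, from the 43.3 percentile in WT to the 78.7 in Shh-/- and the 94.7 in Shh-/-;Gli3-/-. Its FDR was 0.033 in WT and 0 in both mutants. Just past the 3′ end of the gene, the element at +29.8 kb (chr11:85916250-85918149) covered 0.65 kb, 1.05 kb and 1.85 kb, at the 75.1, 69.3 and 81.7 percentile. Its neighbour at +31.8 kb covered 0.3 kb, 0.5 kb and 0.65 kb. The element at +55.1 kb went the other way, with 0.5 kb in WT and 0.15 kb in each mutant. It was the only one of 14 distal elements present in all 3 lists that was shorter in Shh-/-;Gli3-/- than in WT.

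Tbx2, expressed at the limb margins, had little H3K27ac at its promoter in any list. Its promoter peaks covered 0.1 kb in WT and 0.55 and 0.2 kb in Shh-/- and Shh-/-;Gli3-/-, and the highest of their folds stood at the 22.4, 35.3 and 4.31 percentile. The WT promoter peak had an FDR of 0.162 and both Shh-/-;Gli3-/- peaks an FDR of 0.093, whereas of the 3 Shh-/- peaks 2 had an FDR of 0.0329 and the third 0.130. The full Tbx2 window was covered over 0.9 kb (4 peaks), 2.6 kb (7 peaks) and 2.5 kb (7 peaks). Of this, 0.8 kb, 1.95 kb and 2.2 kb lay in the 55.5 kb shared with the Tbx4 window, where 3, 3 and 4 peaks were common to both genes and were counted once in totals. Most of the Tbx2 coverage was therefore the element described above, which is closer to Tbx4. The next strongest distal elements were found in Shh-/- only, 0.1 kb at -8.4 kb in an intron of Bcas3 and 0.3 kb at +11.8 kb. No distal Tbx2 element was found in WT and Shh-/-;Gli3-/- but not in Shh-/-.

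Tbx3, the other gene of the limb margins, had a strong promoter in all 3 lists. Its promoter peaks covered 2.6 kb in WT and 2.65 and 3.05 kb in Shh-/- and Shh-/-;Gli3-/-, and the widest was 2.05 kb, 2.0 kb and 1.75 kb. The highest fold stood at the 85.3, 95.9 and 92.7 percentile. Thus the Tbx3 promoter was covered over almost the same length with and without SHH. Peaks counted as distal numbered 3 in WT (0.4 kb), 0 in Shh-/- and 6 in Shh-/-;Gli3-/- (1.45 kb). Of the last, 0.65 kb was 1 peak next to the promoter peak, in a stretch that the promoter peaks of WT and Shh-/- partly reached. Without it Shh-/-;Gli3-/- had 5 distal peaks of 0.8 kb.

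The 3 distal Tbx3 peaks in WT were 0.1 to 0.15 kb wide with FDR values of 0.314, 0.210 and 0.211, none below 0.05. One of these elements, in an intron at +3.6 kb (chr5:119674300-119674499), was also in Shh-/-;Gli3-/- with 0.1 kb and an FDR of 0.070. Its fold stood at the 16.2 percentile in WT and the 10.3 in Shh-/-;Gli3-/-. Of the other Shh-/-;Gli3-/- distal peaks, the strongest was at +9.7 kb over a Tbx3 exon, with 0.2 kb and an FDR of 0.00257. The peak next to the promoter followed, with an FDR of 0.00417, and then one at -2.1 kb in an intron of the antisense gene Tbx3os1, with 0.15 kb and an FDR of 0.00868. At this strength, absence from the Shh-/- list is not a measure of lost acetylation, since a peak must pass the caller's cutoff to be listed.

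The windows of Tbx3 and Tbx5 did not overlap and were 47.9 kb apart. In that gap WT had 1 peak of 0.1 kb and the mutants 0. Hence no peak had to be shared between these 2 genes.

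Tbx15, a gene of proximal limb mesenchyme and skeleton, had the clearest difference between the 2 mutants. Its peaks covered 6.25 kb in WT (16 peaks), 7.4 kb in Shh-/- (13 peaks) and 14.75 kb in Shh-/-;Gli3-/- (21 peaks). Among all genes this was the 90.7, 90.1 and 97.5 percentile of the covered share of the window. The ratio of Shh-/-;Gli3-/- to Shh-/- was 1.99, against 1.32 over the whole lists. Promoter peaks covered 2.1 kb in WT and 4.7 and 5.1 kb in Shh-/- and Shh-/-;Gli3-/-. Distal peaks covered 4.15 kb, 2.7 kb and 9.65 kb. This split was uneven between lists, because in WT the block over the start was broken into 6 peaks of which 5 (1.75 kb) did not touch the promoter and counted as distal. The whole block was covered over 3.85 kb in WT and 4.55 and 4.7 kb in Shh-/- and Shh-/-;Gli3-/-, and the distal elements outside it over 2.4 kb, 2.7 kb and 9.15 kb.

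Several intronic Tbx15 elements made up this distal length. The element at +57.3 kb (chr3:99311050-99313349), which overlaps a Tbx15 exon, covered 1.2 kb in WT and 0.5 and 2.25 kb in Shh-/- and Shh-/-;Gli3-/-. It was the strongest distal element of the gene, with folds at the 82.3, 78.7 and 95.9 percentile. The element at -3.6 kb, inside the annotated span but upstream of the start used here, covered 0.65 kb, 0.85 kb and 2.05 kb. Shh-/-;Gli3-/- alone had an intronic peak of 1.2 kb at +22.9 kb (chr3:99276650-99277849), at the 85.4 percentile of its list. Near it, the elements at +7.7 kb (0.25 kb in WT, 0.2 kb in Shh-/-;Gli3-/-) and +24.6 kb (0.15 kb and 0.6 kb) were in WT and Shh-/-;Gli3-/- but not in Shh-/-. All 16 WT peaks near Tbx15 were overlapped in Shh-/-;Gli3-/-, against 70.8% of all WT peaks. In Shh-/- 10 of 16 (62.5%) were, near the 63.4% of all WT peaks. Of the 16, 6 were parts of the start block and 4 of the element at +57.3 kb.

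Tbx18, expressed in limb mesenchyme and somites, had 1 strong promoter peak and little else. It covered 1.8 kb in WT and 2.0 and 1.95 kb in Shh-/- and Shh-/-;Gli3-/- (chr9:87729200-87731249). Its fold stood at the 91.1, 99.9 and 98.3 percentile, the highest rank of any member peak in both mutants. WT had no distal peak, whereas each mutant had 5, covering 1.0 kb and 1.05 kb. These lay at +2.3 to +3.0 kb inside the gene and at -8.0 and -8.6 kb over exons of Gm37374, apart from 1 at +66.3 kb in Shh-/-;Gli3-/-, and none of these distal peaks stood above the 50.6 percentile of fold in its list. The whole Tbx18 window was covered over 1.8 kb in WT and 3.0 and 3.1 kb in Shh-/- and Shh-/-;Gli3-/-. For markers of somite and muscle, where Tbx18 is also expressed, the sums in the same order were 0.3, 1.7 and 0.4 kb. Of the 5, Meox1 was covered over 0.15 kb in WT and 0.85 and 0.25 kb in Shh-/- and Shh-/-;Gli3-/-, Pax1 over 0.15, 0.25 and 0 kb, Pax3 over 0, 0.45 and 0.15 kb and Myf5 over 0, 0.15 and 0 kb. Thus 4 of 5 were highest in Shh-/-, as were the sums of the hindlimb markers and of the neural and crest markers. The part of the somite and muscle markers in the Tbx18 and Tbx1 values was not tested.

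Tbx1 had no promoter peak in any list. Its 2 distal elements, at +34.8 and +35.4 kb, lay in an intron of Gnb1l and together covered 0.35 kb in WT and 0.65 and 0.65 kb in Shh-/- and Shh-/-;Gli3-/-. Shh-/- had 1 more peak in the window, of 0.4 kb at the promoter of Sept5 (chr16:18629550-18629949). The totals for the Tbx1 window were thus 0.35, 1.05 and 0.65 kb, and none of these peaks lay within the Tbx1 gene. Of 5 heart markers, the 2 with peaks were also highest in Shh-/-, Myl7 with 0.5 kb in WT and 2.18 and 0.7 kb in Shh-/- and Shh-/-;Gli3-/-, and Nppa with 1.2, 2.45 and 1.55 kb. The part of these heart markers in the Tbx1 value was not tested, and a highest value in Shh-/- was not particular to them.

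**Figure D2:**
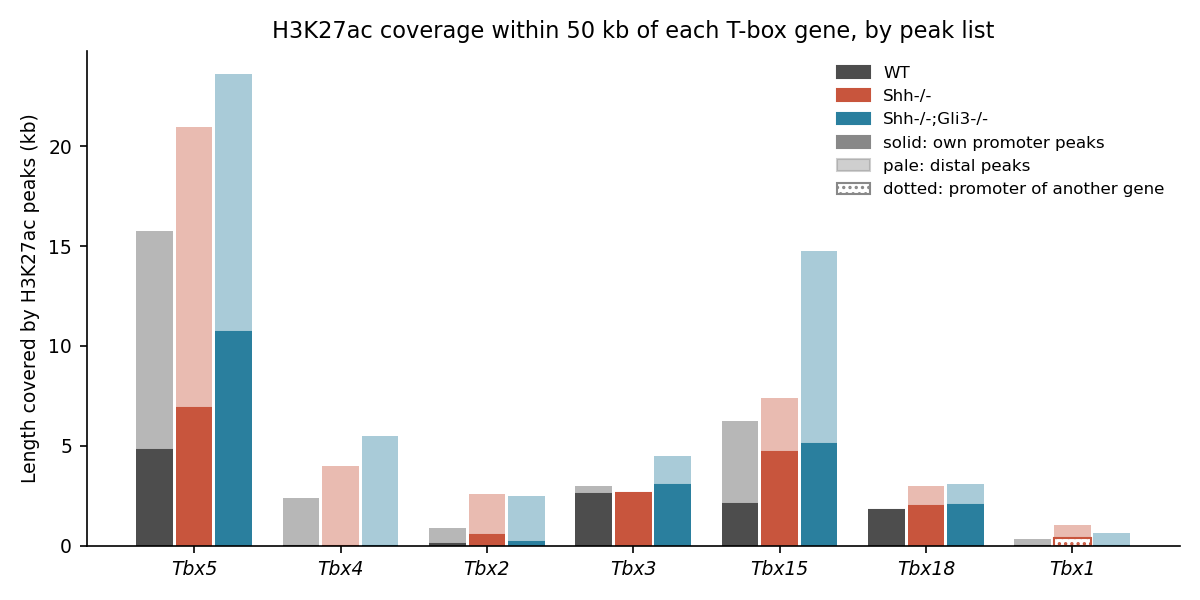
Length covered by peaks within 50 kb of each T-box gene (kb, bars from 0) in the WT, Shh-/- and Shh-/-;Gli3-/- lists, split into peaks at the gene's own promoter, distal peaks, and 1 peak at the promoter of another gene. There is 1 list per genotype, so the bars have no error. Tbx5 is highest in each list, at 15.75, 20.95 and 23.6 kb, and Tbx15 stands at 6.25, 7.4 and 14.75 kb.

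Taking all 7 genes as 1 set, peaks covered 29.65 kb in WT and 39.7 and 52.4 kb in Shh-/- and Shh-/-;Gli3-/-. The ratio to WT was 1.34 for Shh-/- and 1.77 for Shh-/-;Gli3-/-, against 1.25 and 1.66 over the whole lists. The promoter part was 11.4 kb, 16.8 kb and 21.1 kb, and the distal part 18.25 kb, 22.5 kb and 31.3 kb. The distal ratios were 1.23 and 1.72, and those of all distal peaks 1.48 and 2.57, but these are not alike. Fragments of the Tbx5 and Tbx15 start blocks made up 15 of the 52 distal WT peaks near members. Over the series, 11205 of 11667 distal WT peaks lay outside such blocks. Outside the blocks, distal length was 6.1, 9.35 and 12.15 kb at Tbx5 and 2.4, 2.7 and 9.15 kb at Tbx15. The lower ratios of the members were therefore not read as a smaller distal difference. Since Tbx5 held 15.75 of the 29.65 kb in WT, the set was also counted without it, which gave 13.9 kb, 18.75 kb and 28.8 kb and ratios of 1.35 and 2.07.

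By gene, covered length was 1.5-fold or more higher in Shh-/- than in WT for 4 of 7 members (Tbx1, Tbx2, Tbx4 and Tbx18), against 30.8% of all genes with a peak in either list. None was 1.5-fold or more lower (8.49% of genes), and Tbx3 had the lowest ratio, 0.88. Between Shh-/-;Gli3-/- and WT, 6 of 7 members were higher by this measure (38.6% of genes) and none lower (6.29%). Tbx3 lay at the threshold itself with 1.5, and Tbx5 just under it. Between Shh-/-;Gli3-/- and Shh-/-, Tbx3 (1.70) and Tbx15 (1.99) were higher (21.4% of genes) and Tbx1 (0.62) was lower (12.0% of genes). The Tbx1 value rests on the Sept5 promoter peak of Shh-/-, since the distal length was 0.65 kb in both mutants. With that peak given to its nearest start, Tbx1 in Shh-/- over WT was 1.86 in place of 3.0. These counts also depended on the length of the lists. When each list was reduced to its strongest peaks with equal covered length, 1 of 7 members, Tbx2 (1.94), was 1.5-fold or more higher in Shh-/- than in WT (15.6% of genes) and 0 lower (19.0%). In Shh-/-;Gli3-/- 2 of 7 were then higher, Tbx2 (1.56) and Tbx15 (1.68), against 8.72% of genes, and Tbx1, with no peak left, was lower (33.1% of genes). The Tbx2 length left in Shh-/-;Gli3-/- was 1 peak of 1.4 kb, part of the element shared with Tbx4. In Shh-/- that element gave 1.65 of the 1.75 kb left at Tbx2. Tbx1, Tbx4 and Tbx18 in Shh-/- stood at 1.14, 1.15 and 1.31 at equal length, and Tbx3, Tbx4 and Tbx18 in Shh-/-;Gli3-/- at 0.90, 1.19 and 1.08. The median ratio of the 7 genes was 1.67, 1.86 and 1.13 in these 3 comparisons, and that of all genes with peaks in both lists 1.2, 1.32 and 1.10. With 7 genes, of which Tbx2 and Tbx4 share an element, these counts are a description.

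**Figure D3:**
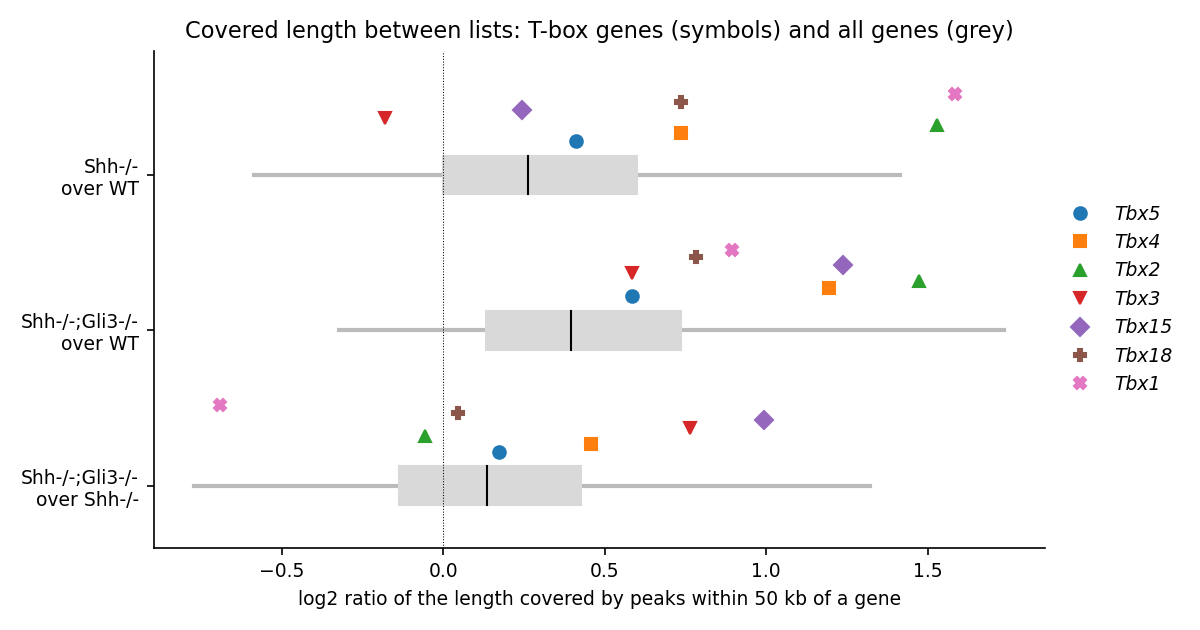
Log2 ratio of the length covered by peaks within 50 kb of a gene, for the 7 T-box genes (symbols) and for all genes with peaks in both lists (grey line from the 5th to the 95th percentile, box from the 25th to the 75th, black line at the median). Tbx2 and Tbx1 lie highest for Shh-/- over WT, at 1.53 and 1.58, the Tbx1 value including a Shh-/- peak at the Sept5 promoter, and Tbx3 lowest, at -0.18. Tbx15 lies highest for Shh-/-;Gli3-/- over Shh-/-, at 1.0.

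The study's design asks whether acetylation lost without SHH returns when GLI3 is also removed, so the overlap of single peaks was compared. Of the 60 WT peaks near members, 45 (75%, Wilson 95% interval 62.8 to 84.2%) overlapped a Shh-/- peak, against 63.4% of all WT peaks. In Shh-/-;Gli3-/-, 52 of 60 (86.7%, 75.8 to 93.1%) were overlapped, against 70.8%. These intervals cover counting error only, and peaks of 1 list share their libraries. For distal WT peaks the counts were 38 of 52 (73.1%, 59.7 to 83.2%) against 39.0% of all distal WT peaks, and 45 of 52 (86.5%, 74.7 to 93.3%) against 52.4%. Of these 52 peaks, 15 were fragments of blocks that also held a promoter peak, and 15 and 14 of them were overlapped. Outside such blocks the counts were 23 of 37 (62.2%, 46.1 to 75.9%) against 37.7% over the series, and 31 of 37 (83.8%, 68.9 to 92.3%) against 50.6%, an alternative chosen after seeing the data. In the opposite direction, a WT peak overlapped 29 of the 60 peaks from Shh-/- (48.3%, all peaks 48.4%) and 28 of the 67 from Shh-/-;Gli3-/- (41.8%, all peaks 43.3%). Without the 26 Tbx5 peaks, 22 of 34 WT peaks (64.7%) were overlapped in Shh-/- and 30 of 34 (88.2%) in Shh-/-;Gli3-/-.

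When peaks of the 3 lists were merged into elements, the members had 69 distal elements. Of these, 14 (20.3%) had a peak in all 3 lists, compared with 9.24% of distal elements over the series. WT and Shh-/-;Gli3-/- without Shh-/- accounted for 3 elements (4.35%, series 3.81%), namely Tbx3 at +3.6 kb and Tbx15 at +7.7 and +24.6 kb. No element was in WT and Shh-/- only (series 1.23%). Elements of a single list numbered 6 for WT (8.70%, series 14.3%), 15 for Shh-/- (21.7%, series 25.2%) and 25 for Shh-/-;Gli3-/- (36.2%, series 39.3%). The rise from WT to Shh-/-;Gli3-/- was thus also that of the series. Of these elements, 1, 10 and 19 had an FDR below 0.05. Single-list elements were short, with a median of 0.15, 0.15 and 0.2 kb. The 14 elements present in all 3 lists covered 10.25 kb in WT and 13.8 and 20.4 kb in Shh-/- and Shh-/-;Gli3-/-. Of these, 10 were longer in Shh-/- than in WT and 13 were longer in Shh-/-;Gli3-/- than in WT. Such counts were not made over the series, where all distal peaks were 1.48 and 2.57 times as long in sum as in WT. They are therefore not read as a trait of these genes.

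**Figure D4:**
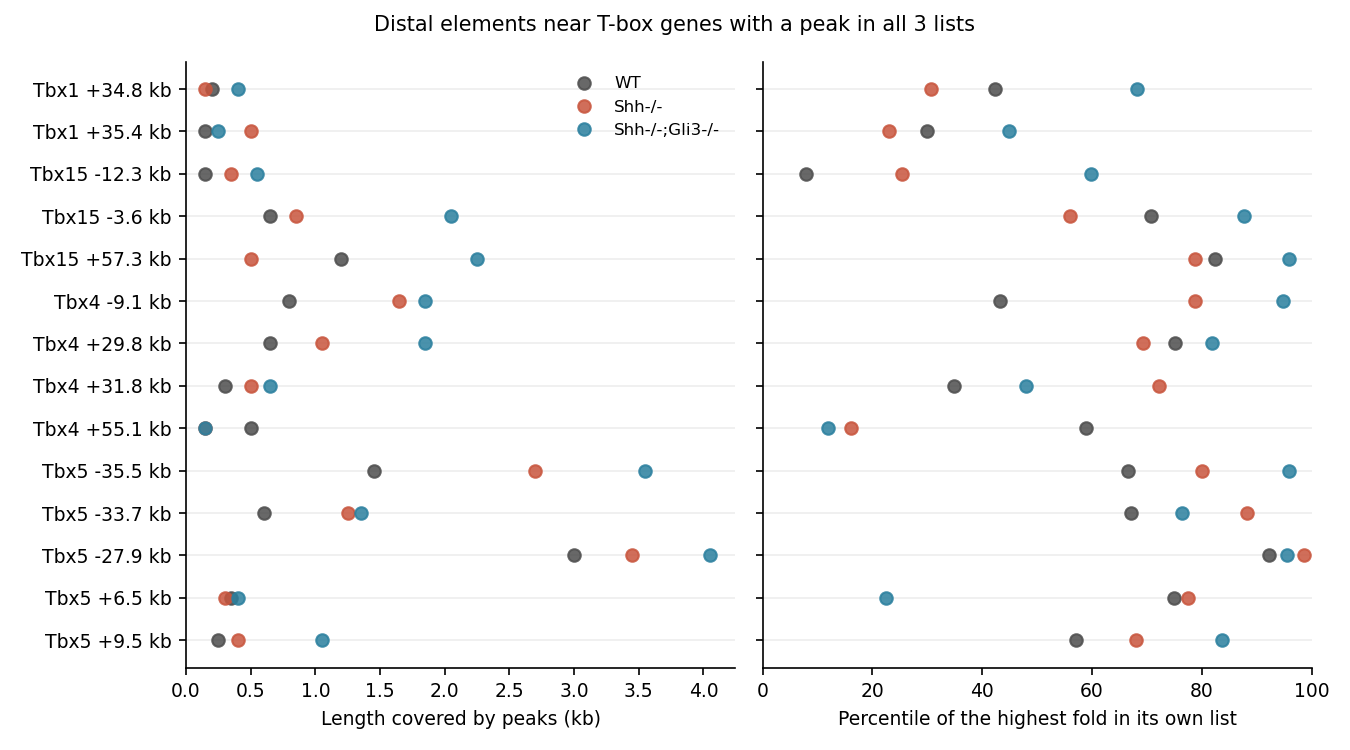
The 14 distal elements near T-box genes with a peak in all 3 lists, 1 per row and named by the gene and the distance of the nearest edge from its start; the left panel gives the length covered by peaks (kb) and the right panel the percentile of the highest fold within its own list. Points are the WT, Shh-/- and Shh-/-;Gli3-/- lists, 1 value each. The Tbx5 element at -27.9 kb is longest in all 3 lists, and the Tbx4 element at -9.1 kb ranks at 43.3 in WT, 78.7 in Shh-/- and 94.7 in Shh-/-;Gli3-/-.

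Tbx2 and Tbx3, the pair of the limb margins, were then set beside the limb-type pair Tbx4 and Tbx5. Tbx2 and Tbx3 together were covered over 3.9 kb in WT and 5.25 and 7.0 kb in Shh-/- and Shh-/-;Gli3-/-. The corresponding lengths for Tbx4 and Tbx5 were 18.15 kb, 24.95 kb and 29.1 kb. Ratios to WT were 1.35 and 1.79 for the margin pair and 1.37 and 1.60 for the limb-type pair. In Shh-/- the margin pair joined unlike values, 2.89 at Tbx2 and 0.88 at Tbx3. The Tbx2 and Tbx4 windows share the element at -9.1 kb from Tbx4, which enters both pairs. With peaks given only to their nearest start, the ratios were 1.06 and 1.55 for the margin pair and 1.36 and 1.58 for the limb-type pair. The nearly equal ratios in Shh-/- thus depended on how peaks were assigned to genes. In WT, 9 peaks lay near the margin pair and 35 near the limb-type pair. Of the margin pair's WT peaks 5 of 9 (55.6%, interval 26.7 to 81.1%) were overlapped in Shh-/- and 6 of 9 (66.7%, 35.4 to 87.9%) in Shh-/-;Gli3-/-. The shares over all WT peaks, 63.4% and 70.8%, lay inside these intervals. For the limb-type pair the counts were 31 of 35 (88.6%) and 30 of 35 (85.7%), and 13 of the 35 were parts of the Tbx5 start block. The 3 WT peaks of the shared element count in both pairs. The gap between the pairs came with a difference in peak strength, as only 3 of the 9 WT peaks near Tbx2 and Tbx3 had an FDR below 0.05, compared with 21 of 35. Its part in the overlap was not tested.

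The other T-box genes mostly had less H3K27ac nearby. Of 10 further family members, Tbx6 and Mga had a promoter peak in each list, Tbx6 with 3.5 kb covered in WT and 6.3 and 4.75 kb in Shh-/- and Shh-/-;Gli3-/-, Tbx10 had 1.65, 2.25 and 1.75 kb without one, and Tbx20, a cardiac gene, and Tbx22 had no peak within 50 kb in any list. Their median covered length was 0.3 kb in WT and 0.35 and 0.425 kb in Shh-/- and Shh-/-;Gli3-/-, against 2.4, 3.0 and 4.5 kb for the 7 members. Among genes of limb outgrowth, Fgf10, which is a target of TBX5 and signals to the ectoderm, was covered over 2.75 kb in WT and 2.3 and 10.1 kb in Shh-/- and Shh-/-;Gli3-/-. Hand2, a posterior gene that opposes GLI3, was covered over 3.05 kb, 1.5 kb and 9.15 kb. Sall4, another gene with a role beside TBX5, was covered over 1.9 kb, 2.05 kb and 2.0 kb. Of the 8 genes with peaks in this list of 10, Fgf10 and Hand2 were the 2 with Shh-/- lowest and Shh-/-;Gli3-/- highest. Hoxc9, Hoxc10 and Hoxc11 were highest in Shh-/-, Bmp4 covered 1.95, 3.5 and 3.35 kb and Grem1 0.1, 0.2 and 0.55 kb. Whole limb buds were used, so fewer cells with the mark and less mark per cell cannot be told apart at any of these genes.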

How the data were processed

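H3K27ac MicroChIP-seq was analysed from 1 deposited peak list per genotype (WT, Shh-/- and Shh-/-;Gli3-/-). Per the submitters' processing notes, reads were aligned to mm10 with Bowtie2 2.2.5, and per the methods peaks were called with CisGenome against input. The study describes its peak tables, whose leading WT entries match the deposited WT list, as called from both replicates of a genotype, and how the replicates were combined is not given in the sources used here. Peak edges lie in 50 bp steps, and whether positions count from 0 or 1 is not stated. For each peak the authors deposited a width in bp, an FDR (q-value), a maxT score and the log2 fold change over input. Read depth per library is unknown from these files, so no interval based on reads was made.

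Peaks were assigned to genes by GENCODE M21 windows of 50 kb around the gene span. Promoter peaks overlapped the region from 2 kb before to 1 kb after a protein-coding start, and other peaks were called distal. Peaks were taken as overlapping from 1 bp. A covered length 1.5-fold apart was counted as past the threshold. The regions named were promoter peaks, the 3 distal elements with the highest fold per gene, and elements in WT and 1 mutant list only. Sequences are from GRCm38.p6. Counts and lengths were computed in Python 3.11.15 with pandas 2.3.3 and numpy 2.4.6, intervals with scipy 1.17.1, and the overlap code was tested on simulated data. The members, lists and rules were chosen with earlier results of these data known. Alternatives were stricter FDR values, lists reduced to equal number or length, other windows and other overlap definitions.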

Additional observations from a re-analysis of the deposited data

How the results depend on the processing

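No paired analysis was possible because the lists hold no values per replicate, and for the same reason no replicate could be left out. Covered length over all 7 members stayed within 1.5 times its reported ratio under all 8 alternatives, from 1.15 to 1.5 for Shh-/- over WT and from 1.31 to 2.14 for Shh-/-;Gli3-/- over WT. Leaving out Tbx5 was chosen after seeing the data. The share of WT peaks overlapped moved outside its interval with FDR below 0.01 (84.6% in Shh-/-), with FDR below 0.05 (94.6% in Shh-/-;Gli3-/-), with lists of equal covered length (68.3% in Shh-/-;Gli3-/-), with 50% of the WT peak covered (61.7% in Shh-/-), with reciprocal 50% overlap (16.7% and 13.3%) and with gaps of at most 500 bp allowed (86.7% and 96.7%). By reciprocal overlap the Shh-/- share was thus above that of Shh-/-;Gli3-/-. The share over all WT peaks was not computed under these alternatives. Whether the members stayed above it was therefore not tested. For single genes and pairs, 101 of 119 alternatives stayed within 1.5 times the reported ratio. In 116 of 119 the ratio stayed on the same side of 1. The others were Tbx3 in Shh-/-;Gli3-/- over WT (0.90 for 1.5) and Tbx15 in Shh-/- over WT (0.96 for 1.18) with lists of equal covered length, and Tbx3 in Shh-/- over WT with FDR below 0.05 (1.02 for 0.88). The cause was not tested. In Shh-/-;Gli3-/- over WT, with lists of equal covered length, Tbx15 kept 1.68 and Tbx4 fell to 1.19. With FDR below 0.01 the same Tbx4 ratio reached 7.50. Alternatives that left a gene without WT or mutant peaks have no value. The lists hold no read counts, so depth limits every absence to a peak not called.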

Other observations

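Just outside the window used for Tbx3, between 50 and 200 kb upstream of its start, Shh-/-;Gli3-/- had 7 peaks covering 2.2 kb within chr5:119609200-119613499, where WT and Shh-/- had none. The highest log2 fold over input among them was 3.67. This cluster was found by looking at the flanks after the values in the windows were known. With windows of 100 kb, which take in this cluster, the Tbx3 ratio of Shh-/-;Gli3-/- to WT was 2.16 in place of 1.5. Downstream of Tbx15 over the same distances, WT had 1 peak (0.25 kb), Shh-/- 3 (0.65 kb) and Shh-/-;Gli3-/- 4 (1.9 kb), and upstream of Tbx18 the lists had 1 (0.1 kb), 0 and 2 (0.75 kb). Downstream of Tbx5 there were 1, 2 and 2 peaks, covering 0.2, 0.4 and 0.5 kb.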
